A study of Rattus norvegicus with 8 samples.

Results

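The genes described here are 8 genes of the p53 damage response and of apoptosis, chosen by their symbols: Mdm2, Ccng1, Gadd45a, Gadd45b, Sesn2, Bax, Bbc3 and Fas. The authors' deposited table of 15115 genes has 1 row for each of 7 of them, and Bbc3 was not analysed here. The samples were livers of wild-type male F344 (Fischer) rats, given as 1 year old in the labels, on CDAA, a diet of defined amino acids that lacks choline and gives rats fatty liver, scarring and in time liver cancer. Of the 8 livers sequenced, 4 came from rats on CDAA alone and 4 from rats on CDAA with pterostilbene, a dimethylated relative of resveratrol, at 1.34 g per kg of diet (CDAA_PTS). The study had 6 rats per group, which arrived at 4 weeks of age. It ran for 60 weeks, and a lead-in of 3 weeks is listed for both groups. During the first 3 weeks the CDAA_PTS rats also ate pterostilbene, in a choline-sufficient diet. The study collected tumours, nodules or normal liver, and the sources used here do not say which of these went into each library.

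Cells with damaged DNA stabilise p53, a transcription factor that switches on genes for cell cycle arrest, repair and cell death. Its targets include its own inhibitor Mdm2, so that the response limits itself. In the liver this response is known as a barrier to the growth of damaged hepatocytes, and its death arm runs through the BCL2 family at mitochondria and through Fas at the cell surface, a receptor to which hepatocytes are known to be sensitive. Several of these genes also answer to other signals, as Gadd45b does to NF-kB and Sesn2 to the stress factor ATF4.

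The table holds 1 FPKM value per diet, a length-scaled level, and no value per rat, so no spread between rats can be shown for a level and the depth of each library is unknown. Summed over all genes, the mean normalized counts reach 1.39e+07. Errors are the standard errors (SE) of the authors' DESeq2 log2 fold changes over 4 rats against 4, which are moderated toward 0, and 95% intervals were computed from them. A gene is called, and is said to have risen or fallen, when the authors' edgeR adjusted p for it is under 0.05 over all 15115 genes. Of all genes 3.41% were called, 1.95% as lower and 1.47% as higher with pterostilbene, while DESeq2 called 4.46% and Cuffdiff 5.51% of the genes each tested. The hepatocyte marker Alb stood at a log2 mean CPM of 16.72, and 0 of the 7 hepatocyte markers were called by edgeR, DESeq2 or Cuffdiff. Cuffdiff did not test Alb, and DESeq2 gave no p for Tat. An unadjusted edgeR p under 0.05 was found for 1 of the 7, beside 2210 of all 15115 genes.

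The upstream sequences of 3 members are shown because they belong to the member that fell, to the other member whose window held a p53 half-site, and to the member that stood higher with pterostilbene. They are the 250 bases before the RefSeq gene start in GRCr8, a later rat assembly than the rn6 of the expression table, read 5′ to 3′ along the gene. All 3 lie on the minus strand, at chr4:97486800-97487049 for Gadd45a, chr10:25684877-25685126 for Ccng1 and chr5:150005256-150005505 for Sesn2. Capitals mark p53 half-sites, the octamer ATTTGCAT and CCAAT boxes on either strand.
Gadd45a: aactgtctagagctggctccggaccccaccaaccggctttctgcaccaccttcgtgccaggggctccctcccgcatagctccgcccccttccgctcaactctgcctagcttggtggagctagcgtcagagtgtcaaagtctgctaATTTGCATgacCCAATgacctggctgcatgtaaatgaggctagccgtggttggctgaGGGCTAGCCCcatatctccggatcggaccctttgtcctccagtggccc
Ccng1: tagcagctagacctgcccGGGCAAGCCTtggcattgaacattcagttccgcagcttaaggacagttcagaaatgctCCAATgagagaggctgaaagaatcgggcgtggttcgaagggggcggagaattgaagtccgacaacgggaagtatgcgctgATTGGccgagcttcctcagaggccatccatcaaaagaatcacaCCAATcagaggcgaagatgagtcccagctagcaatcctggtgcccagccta
Sesn2: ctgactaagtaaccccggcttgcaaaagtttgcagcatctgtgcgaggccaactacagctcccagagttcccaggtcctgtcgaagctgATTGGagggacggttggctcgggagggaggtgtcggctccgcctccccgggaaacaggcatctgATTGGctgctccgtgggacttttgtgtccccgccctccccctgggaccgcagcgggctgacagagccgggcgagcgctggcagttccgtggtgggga

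The RefSeq table held 6 of the 8 members, and 33469 windows of the same length were searched on both strands for comparison. A p53 half-site, a 10-base pattern that pairs up to form a full p53 binding site, was found in the windows of Gadd45a and Ccng1, 2 of the 6, against 6.64% of all windows. The Gadd45a half-site GGGCTAGCCC lay 48 to 39 bases before the start and the Ccng1 half-site GGGCAAGCCT 232 to 223 bases before it. The 10 bases directly before the Ccng1 half-site miss the pattern by 1 base, and such near matches were not counted. The octamer was found in the Gadd45a window alone among the 6, 105 to 98 bases before the start, and in 1.56% of all windows. A CCAAT box lay 94 to 90 bases before the Gadd45a start. In human GADD45A, octamer and CCAAT elements near the start are known to carry induction by damage that does not need p53. CCAAT boxes were found in 5 of the 6 windows, including Sesn2, and in 34% of all windows. The other motifs searched were GGGCGG, found in 6 of 6 and 30.5% of all, TGACG, in 2 of 6 and 18.2%, and TGANTCA, in 1 of 6 and 6.34%. The 6 windows were 53.6% to 66% G and C, against a median of 51.2% over all windows. The part of base composition in these counts was not tested. These matches describe letters and not binding, and the octamer was chosen for the search after the Gadd45a sequence had been read. Sites inside the genes, such as in introns, or farther upstream were not searched, so a window without a half-site does not mean a gene without one.

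With pterostilbene, Gadd45a was lower and the other measured members were not called. Of the 7 genes, 6 stood lower and 1, Sesn2, stood higher in CDAA_PTS. The 1 called member is 14.3% of 7, beside 3.41% of all genes by edgeR (4.46% by DESeq2 and 5.51% by Cuffdiff, which each called the same 1 member), and with 7 genes 1 call is too few to set against that share. The median edgeR log2 fold change of the 7 genes was -0.30 and that of all genes was 0.01. Of all genes, 49% stood below 0.

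**Figure D1:**
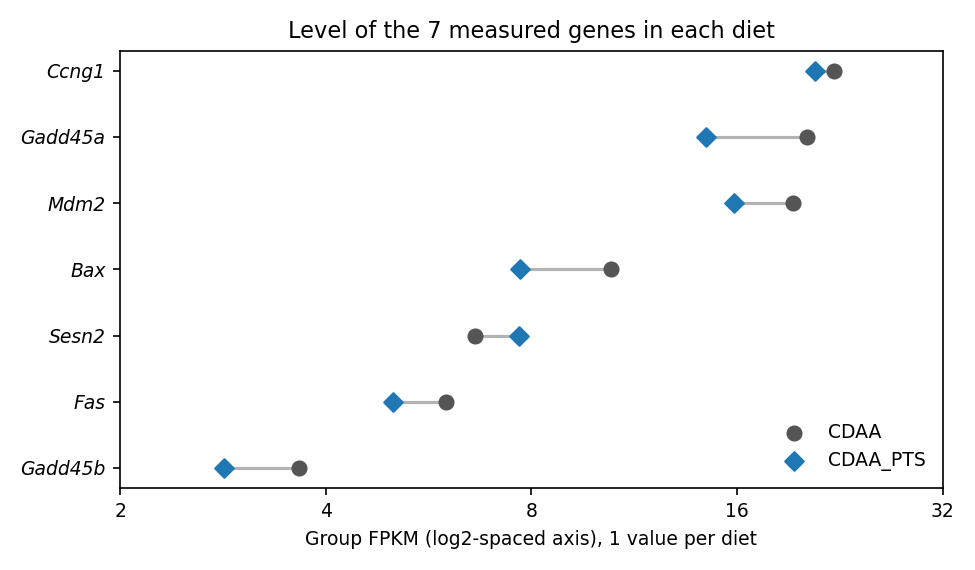
Level of each measured gene in FPKM on a log2-spaced axis, with grey circles for CDAA and blue diamonds for CDAA_PTS, 1 authors' value per diet and no error available. Ccng1 is the highest in both diets at 22.2 and 20.8 FPKM and Gadd45b the lowest at 3.65 and 2.83 FPKM, and for Sesn2 alone the diamond lies right of the circle.

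Ordered by FPKM in CDAA, the levels ran Ccng1, Gadd45a, Mdm2, Bax, Sesn2, Fas and Gadd45b. In CDAA_PTS the order was Ccng1, Mdm2, Gadd45a, Bax, Sesn2, Fas and Gadd45b, so that Gadd45a and Mdm2 changed places. Bax and Sesn2, which were apart at 10.5 and 6.61 FPKM in CDAA, stood at 7.69 and 7.67 FPKM in CDAA_PTS. Whether neighbours in these orders differ beyond the spread between rats cannot be told from 1 value per diet. Ccng1 ranked above 79.9% of genes or level with them in CDAA and Gadd45b above 36.5%, so the members span the middle and upper range of the table.

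Among the arrest and repair genes, Gadd45a was the member that passed. Gadd45a, a small acidic protein that binds partners such as the p21 cell cycle inhibitor and PCNA and takes part in stress kinase signalling and repair, is encoded at 97782511 to 97784842 on chromosome 4 of rn6 (ENSRNOG00000005615), as are all positions below, in the authors' deposited table. Its level was 20.2 FPKM in CDAA and 14.4 FPKM in CDAA_PTS, so it fell by 28.8%. In edgeR the change was -0.51 on the log2 scale (adjusted p 0.047, authors' deposited table). In DESeq2 it was -0.44 with an SE of 0.14 and an interval of -0.73 to -0.16 (adjusted p 0.0499, authors' deposited table), and in Cuffdiff the log2 ratio was -0.49 (adjusted p 0.030, authors' deposited table). All 3 tools therefore called it, 2 of them close to the threshold: it ranked 494th of 516 called genes by edgeR p, and DESeq2 would have needed a change of 0.44 in size to call it. Of the 516 called genes, 73.8% had a larger edgeR change.

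Gadd45b, the paralogue that is induced by NF-kB and TGF-beta and protects cells in regenerating mouse liver, lies on chromosome 7 at 11646268 to 11648322 (ENSRNOG00000019822). It was the least abundant member, at 3.65 FPKM in CDAA and 2.83 FPKM in CDAA_PTS. Its DESeq2 log2 fold change was -0.25 with an SE of 0.20 and an interval of -0.64 to 0.15 (edgeR adjusted p 0.63, authors' deposited table). At its mean of 4.39 CPM a DESeq2 change under 0.62 in size would not have been called, so a fall as large as that of Gadd45a would not have been called. The third paralogue, Gadd45g, stood at 30.5 FPKM in CDAA and 20.3 FPKM in CDAA_PTS, an edgeR change of -0.54 on the log2 scale (adjusted p 0.34, authors' deposited table). Its change was thus as large as that of Gadd45a without an edgeR call, while Cuffdiff called it (adjusted p 0.0019, authors' deposited table). The differences between the paralogues could not be tested without values per rat.

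Ccng1, cyclin G1, a direct p53 target that recruits a phosphatase to Mdm2, lies on chromosome 10 at 25903910 to 25910325 (ENSRNOG00000003256). It had 22.2 FPKM in CDAA and 20.8 FPKM in CDAA_PTS. This was the smallest change among the members, with a DESeq2 log2 fold change of -0.11, an SE of 0.11 and an interval of -0.32 to 0.10 (edgeR adjusted p 0.75, authors' deposited table). Its interval leaves out the DESeq2 value of Gadd45a, -0.44, but overlaps the Gadd45a interval of -0.73 to -0.16. The difference between Ccng1 and Gadd45a was not tested. Its relative Ccng2, a cyclin that rises in quiescent cells, had 12.2 FPKM in CDAA and 13.7 FPKM in CDAA_PTS (edgeR adjusted p 0.64, authors' deposited table).

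Mdm2, the ubiquitin ligase that marks p53 for destruction and is itself a p53 target, lies on chromosome 7 at 60719065 to 60743328 (ENSRNOG00000006304). It stood at 19.3 FPKM in CDAA and 15.9 FPKM in CDAA_PTS. Its DESeq2 log2 fold change was -0.27 with an SE of 0.12 and an interval of -0.51 to -0.03, while its edgeR adjusted p of 0.26 did not pass (authors' deposited table). Before adjustment the edgeR p of Mdm2 was 0.030 (authors' deposited table), and 2210 of the 15115 genes had an unadjusted p under 0.05. Mdm4, the partner of Mdm2 that masks the activating part of p53, had 23.3 FPKM in CDAA and 25.4 FPKM in CDAA_PTS (edgeR adjusted p 0.83, authors' deposited table). p53 is controlled mainly through its protein, which was not measured.

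Sesn2, sestrin 2, a leucine-binding brake on the growth kinase complex mTORC1 that is also linked to AMPK and to defence against oxidants, lies on chromosome 5 at 150684132 to 150704117 (ENSRNOG00000042785). It had 6.61 FPKM in CDAA and 7.67 FPKM in CDAA_PTS, the one member that was higher with pterostilbene. The DESeq2 log2 fold change was 0.19 with an SE of 0.13 and an interval of -0.08 to 0.45 (edgeR adjusted p 0.56, authors' deposited table). Sesn1, the sestrin most tied to p53, stood at 8.54 FPKM in CDAA and 10.5 FPKM in CDAA_PTS, a change of 0.28 in log2 terms (edgeR adjusted p 0.15, authors' deposited table). Sesn3, the sestrin driven by FoxO factors, fell from 19.2 to 13.1 FPKM, an edgeR change of -0.55 on the log2 scale (adjusted p 0.0042, authors' deposited table). By FPKM, Sesn3 was the most abundant sestrin in both diets, and in CDAA_PTS the 3 sestrins lay between 7.67 and 13.1 FPKM.

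Among the death genes, Bax, which opens the outer mitochondrial membrane, came nearest to a call. Bax lies on chromosome 1 at 101451801 to 101457207 (ENSRNOG00000020876) and had 10.5 FPKM in CDAA and 7.69 FPKM in CDAA_PTS. The edgeR change was -0.45 on the log2 scale (adjusted p 0.11, authors' deposited table), and the DESeq2 change was -0.39 with an SE of 0.15 (adjusted p 0.10, authors' deposited table). The DESeq2 interval ran from -0.68 to -0.11, and a change of 0.44 in size was needed for a call. Bak1, which acts beside Bax in the same membrane, had 6.01 FPKM in CDAA and 4.95 FPKM in CDAA_PTS (edgeR adjusted p 0.44, authors' deposited table).

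Fas, the death receptor that binds Fas ligand and recruits Fadd and caspase 8, lies on chromosome 1 at 252589784 to 252624790 (ENSRNOG00000019142). It stood at 6.00 FPKM in CDAA and 5.02 FPKM in CDAA_PTS. Its DESeq2 log2 fold change was -0.21 with an SE of 0.16 and an interval of -0.53 to 0.11 (edgeR adjusted p 0.61, authors' deposited table). Faslg, the ligand carried by T and NK cells, was low in both diets at 0.647 FPKM in CDAA and 1.09 FPKM in CDAA_PTS (edgeR adjusted p 0.28, authors' deposited table). Fadd and Casp8, the adaptor and the first caspase of the receptor, had log2 fold changes of -0.22 and -0.10 and neither passed (edgeR adjusted p 0.48 and 0.84, respectively, authors' deposited table).

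**Figure D2:**
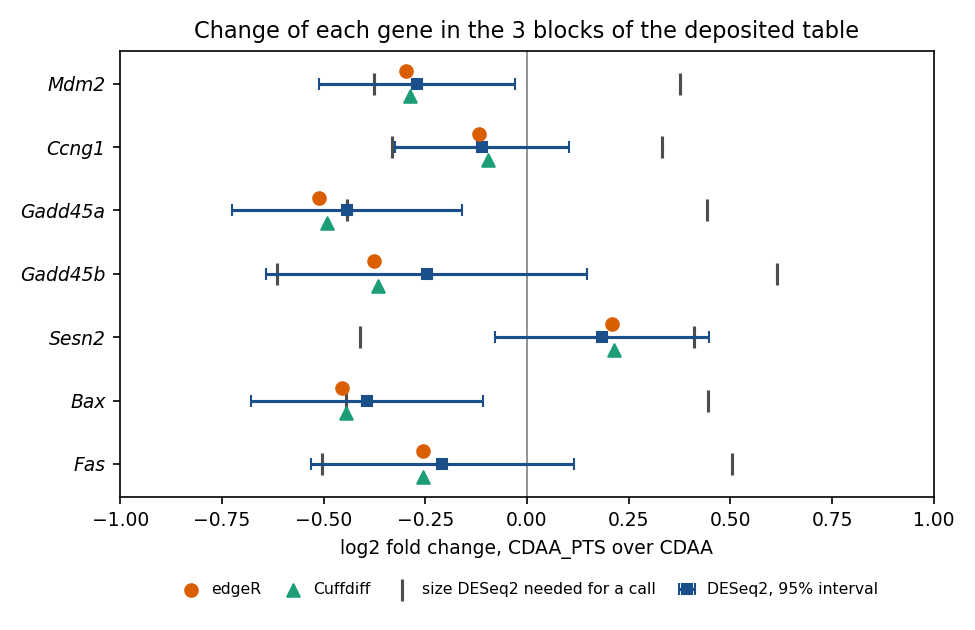
Log2 fold change of each measured gene, CDAA_PTS over CDAA, from the edgeR (circles), DESeq2 (squares with 95% intervals) and Cuffdiff (triangles) values of the authors' deposited table, with grey ticks at the size DESeq2 needed for a call. The Gadd45a square at -0.44 sits on its tick, the Bax square at -0.39 falls short of its tick at 0.44 in size, and the Sesn2 values lie right of 0.

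The 3 tools gave each of the 7 genes the same direction. The size needed for a DESeq2 call ranged from 0.33 for Ccng1 to 0.62 for Gadd45b, so smaller changes would have been missed in this design. Livers are mixtures, and fewer cells of a type and less RNA per cell cannot be told apart in these bulk values. The summed FPKM of 9 T and NK cell markers was 32.9 in CDAA and 35.1 in CDAA_PTS, of which Cd4 held 22.9 in each diet and the other 8 held 9.97 and 12.2. Of these 9 markers, 6 stood above 0, with a median edgeR log2 fold change of 0.36. For 8 macrophage markers the sums were 242 and 239 FPKM, 4 stood above 0 and the median was -0.03. For 10 proliferation markers the sums were 53.8 and 55.1 FPKM, for 5 cholangiocyte markers 69.7 and 81.6, for 5 endothelial markers 60.8 and 63.5, and for 6 stellate cell and myofibroblast markers 107.8 and 114. All 5 cholangiocyte markers stood above 0, with a median of 0.23, and the medians of the proliferation, endothelial and stellate cell lists were -0.01, -0.05 and 0.19. Of the 43 markers in these 6 lists none was listed at 0 and 0 were called by edgeR or DESeq2. The shares called over all genes were 3.41% and 4.46%, respectively. DESeq2 gave no adjusted p for Cd3d, Cd3g, Gzmb and Acta2, and Cuffdiff did not test Gzmb. An unadjusted edgeR p under 0.05 was found for 4 of the 43, beside 2210 of all 15115 genes. Cuffdiff called 2 of the 43, beside 5.51% of all genes it tested. The part of these markers in the member values was not tested.

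**Figure D3:**
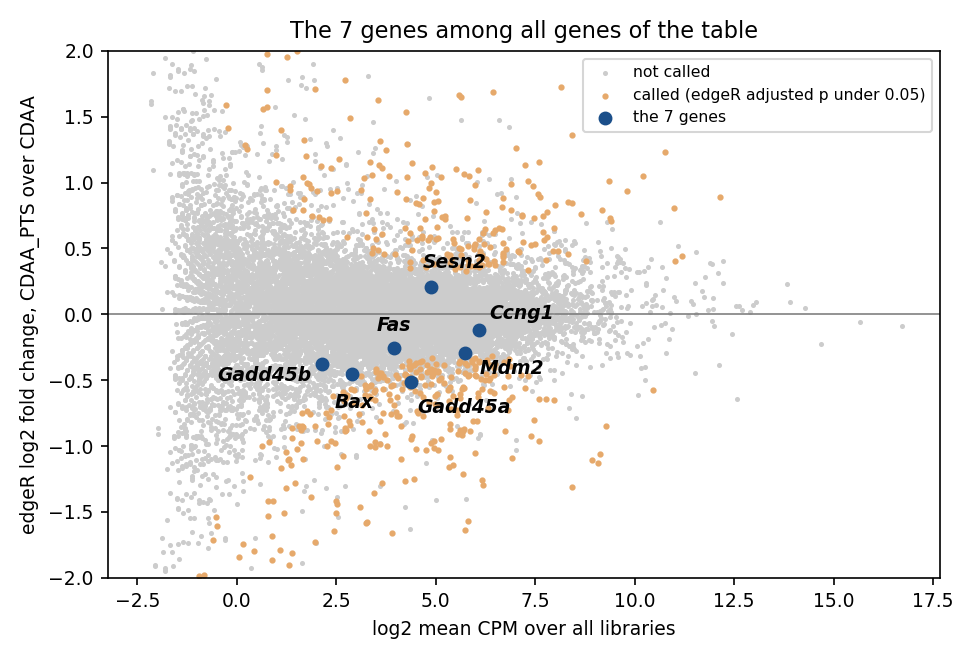
The edgeR log2 fold change against log2 mean CPM for all genes of the table, with called genes in orange and the 7 genes in blue, and 130 genes outside the plotted range of 2 in size not shown. Gadd45a lies at the inner edge of the called genes and the other 6 lie among genes that were not called.

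The wider pathway was read from 8 lists of genes around the members, 125 genes of which 111 were measured, the 7 measured members included. In them 1 gene rose, 8 fell and 102 did not pass, so that 8.11% were called against 3.41% of all genes. The lists were chosen with earlier results known and the difference was not tested. All 9 called genes were also called by DESeq2, and 8 of them by Cuffdiff, in the authors' deposited table.

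In the list of p53 and its regulators, which includes the member Mdm2, 0 of 12 measured genes were called by edgeR, DESeq2 or Cuffdiff. The edgeR share over all genes was 3.41%, and with 12 genes 0 calls cannot be set apart from it. DESeq2 gave no adjusted p for Cdkn2a. An unadjusted edgeR p under 0.05 was found for 1 of the 12, Mdm2, beside 2210 of all 15115 genes. The median log2 fold change of the 12 genes was 0.03. Of 30 measured p53 targets of arrest, repair and feedback, 1 rose, 2 fell and 27 did not pass, with a median of -0.15. Cdkn1a, the p21 inhibitor of cyclin-dependent kinases and the best known p53 target, rose from 14.1 to 21.6 FPKM, an edgeR change of 0.73 on the log2 scale (adjusted p 0.0026, authors' deposited table) and a DESeq2 change of 0.62 (SE 0.15). Plk3, a stress-responsive polo-like kinase, fell from 4.08 to 2.27 FPKM, a change of -0.82 in log2 terms (edgeR adjusted p 0.038, authors' deposited table). Gadd45a was the other gene of this list that fell. The 2 classic arrest genes, Cdkn1a and Gadd45a, thus changed in opposite directions, each past the threshold.

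Of 14 measured sestrins and mTORC1 brakes, Sesn3 fell, none rose and 13 did not pass, with a median of 0.10. The 1 call is 7.14% of the 14, beside 3.41% of all genes called by edgeR. Ddit4, a stress-induced mTORC1 inhibitor that p53 and glucocorticoids raise, had 9.11 FPKM in CDAA and 4.71 FPKM in CDAA_PTS, a change of -0.98 in log2 terms (edgeR adjusted p 0.064, authors' deposited table). Of 14 measured ATF4 stress genes, 2 fell and 12 did not pass, with a median of -0.22. The 2 that fell are 14.3% of the 14, beside 3.41% of all genes called by edgeR. They were Atf3, an early stress transcription factor, which fell from 7.29 to 2.34 FPKM (edgeR log2 fold change -1.58, adjusted p 9.0e-05, authors' deposited table), and Cebpb, a liver stress and acute phase factor, which fell from 20.0 to 12.0 FPKM (edgeR log2 fold change -0.73, adjusted p 0.00047, authors' deposited table). Atf4 itself had 125 FPKM in CDAA and 112 FPKM in CDAA_PTS (edgeR adjusted p 0.69, authors' deposited table). Of the 14 ATF4 stress genes, 11 stood below 0 and 3 above. Whether these genes changed as a group was not tested.

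In the BCL2 family 0 of 11 measured pro-death genes and 0 of 4 pro-survival genes were called by edgeR or DESeq2. The edgeR share over all genes was 3.41%, and with 11 and 4 genes 0 calls cannot be set apart from it. DESeq2 gave no adjusted p for Bik, a pro-death gene. The medians were -0.23 for the pro-death and -0.27 for the pro-survival genes. An unadjusted edgeR p under 0.05 was found for 2 of the 11 and 2 of the 4, beside 2210 of all 15115 genes. Cuffdiff called none of the 11 and 1 of the 4 in the authors' deposited table, beside 5.51% of all genes it tested. Pmaip1, a p53-induced sensitizer of the same class as Bbc3, was scarce at 0.759 FPKM in CDAA and 0.522 FPKM in CDAA_PTS (edgeR adjusted p 0.48, authors' deposited table). Bcl2l1, the source of the survival protein Bcl-xL, had 10.8 FPKM in CDAA and 8.26 FPKM in CDAA_PTS, a change of -0.33 in log2 terms (edgeR adjusted p 0.24, authors' deposited table). Bcl2 itself had 3.72 and 3.05 FPKM in that order (edgeR adjusted p 0.82, authors' deposited table). Of the pro-death genes 7 stood below 0 and 4 above, and all 4 pro-survival genes stood below 0. Bmf, a pro-death sensitizer freed when cells lose attachment, was one of the 2 with an unadjusted edgeR p under 0.05 and stood higher, at 10.3 FPKM in CDAA and 13.4 FPKM in CDAA_PTS (edgeR log2 fold change 0.37, adjusted p 0.18, authors' deposited table). Bax was the other of the 2.

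Of 11 measured death receptor genes none was called by edgeR, DESeq2 or Cuffdiff, where edgeR called 3.41% of all genes. Of the 11, 4 had an unadjusted edgeR p under 0.05, beside 2210 of all 15115 genes. The median of the 11 was -0.12. Among 16 measured genes of caspases, the apoptosome and their inhibitors, 3 fell, none rose and 13 did not pass, with a median of -0.19. Apaf1, the scaffold of the apoptosome and a p53 target, fell from 5.51 to 4.05 FPKM (edgeR log2 fold change -0.43, adjusted p 0.035, authors' deposited table). Xiap, an inhibitor of caspases, fell from 62.2 to 40.3 FPKM (edgeR log2 fold change -0.63, adjusted p 0.036, authors' deposited table).

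**Figure D4:**
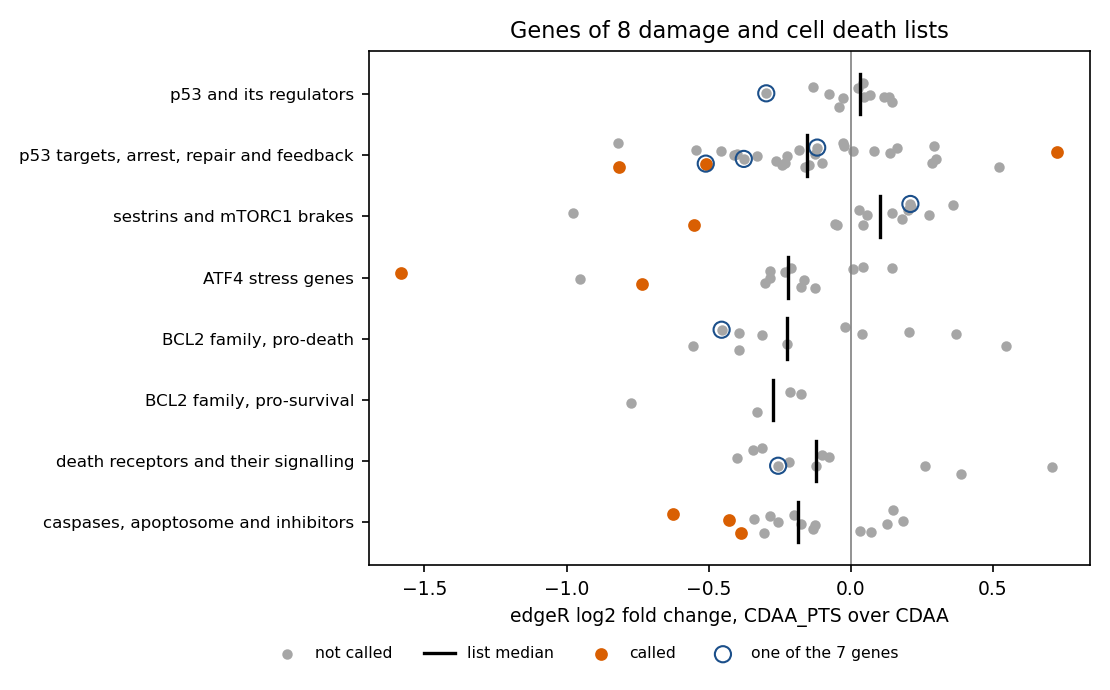
The edgeR log2 fold change of the measured genes of 8 lists around the members, 1 point per gene in each list. Tnfrsf10b is in both the p53 target list and the death receptor list and has a point in each. Called genes are orange, the 7 members are ringed and black bars mark list medians. Cdkn1a at 0.73 is the single called point right of 0, and the medians run from -0.27 for the pro-survival BCL2 genes to 0.10 for the sestrins and mTORC1 brakes.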

How the data were processed

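Liver RNA of 8 rats was extracted with Trizol and made into Illumina TruSeq libraries, per the labels' protocols. The submitters' processing notes name FastQC, TopHat2, Cufflinks, DESeq2, edgeR and build rn6; no source used here states versions, the counting tool, the model designs or how strand was handled. The file is the authors' comparison table, with DESeq2, edgeR and Cuffdiff blocks per the file headers. The authors' DESeq2 block gives a signal (mean of counts divided by size factors), a log2 fold change moderated toward 0, its SE, a Wald score and p-values. From edgeR the authors give the log2 fold change, log2 mean CPM and p-values, and the deposited Cuffdiff block 1 FPKM value per group, a log2 ratio, a test score and p- and q-values. It holds 0 columns of per-sample values outside these.

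No count per rat was at hand, so the planned count test gave way to the authors' edgeR statistics, with an adjusted p under 0.05 as threshold. P-values set the difference between the diets against the variation between rats as the authors' models estimated it. Intervals are the authors' DESeq2 value ± the normal 95% quantile times its SE, and the size needed for a call is the smallest called Wald score, 3.06, times the SE. Alternatives were the authors' DESeq2 and Cuffdiff blocks, a minimum of 1 CPM, a threshold of 0.1, FPKM pseudocounts of 0.1 and 1, and median centring. The 7 members and the called genes named beside them overlap no other row and share no Cuffdiff locus. Members and lists were chosen with earlier results of these data known. Named genes are the members, each called list gene and up to 5 relatives or partners per list; with 1 value per diet no gene could be ranked by likeness of pattern. A few list genes enter the counts but are not reported here by name. Missing adjusted p-values stayed missing. Python 3.11.15, pandas 2.3.3, NumPy 2.4.6, SciPy 1.17.1 and matplotlib 3.10.9 were used, and the adjustment was tested on simulated data.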

Additional observations from a re-analysis of the deposited data

How the results depend on the processing

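The count of called members was 1 under each alternative tried: the authors' DESeq2 columns, their Cuffdiff columns, a minimum of 1 CPM and an edgeR adjusted p under 0.1. Gadd45a was that member each time. With at least 1 CPM required, its edgeR adjusted p was 0.042. The list genes called numbered 9 by edgeR, 10 by DESeq2, 13 by Cuffdiff, 9 with the minimum and 11 at 0.1. Over all genes the counts were 516, 587, 729, 543 and 797, the last more than 1.5 times the first. The 35 recomputed member changes all kept their direction, and those from DESeq2 and Cuffdiff kept their side of the threshold. For the pseudocounts this outcome was fixed, because adding the same amount to both FPKM values cannot reverse their ratio. The DESeq2 and Cuffdiff values could have differed, but they come from the same livers as the edgeR values. The median of the members was -0.25 in DESeq2 and -0.29 in Cuffdiff. Subtracting the median of genes with at least 1 CPM, 0.0017, could not reverse a direction either, since it was smaller than every member change. No paired analysis was possible because the deposited table holds no value per rat, and leaving out single rats was not run for the same reason. Whether 1 rat carries the Gadd45a value therefore cannot be told. Depth per library is unknown, and changes under 0.33 to 0.62 on the DESeq2 log2 scale could not have been called.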

Other observations

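Cuffdiff called 13 genes of the lists, and 5.51% of all genes it tested. Of the 13, Cuffdiff alone called 5, all of them lower with pterostilbene, while edgeR and DESeq2 left them uncalled. These 5 were singled out after their values were seen. Besides Gadd45g and Ddit4, they included Trib3, a pseudokinase induced by ATF4, and Bcl2a1, an NF-kB-driven survival protein. Trib3 had 19.7 FPKM in CDAA and 10.1 FPKM in CDAA_PTS, a change of -0.95 on the log2 scale (edgeR adjusted p 0.066, authors' deposited table). Bcl2a1 had 14.3 and 8.39 FPKM in that order (edgeR log2 fold change -0.77, adjusted p 0.11, authors' deposited table). Their DESeq2 SE lay between 0.19 and 0.20.

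Xpc, the damage sensor of nucleotide excision repair and a p53 target, was the single list gene called by DESeq2 alone. It had 12.1 FPKM in CDAA and 15.0 FPKM in CDAA_PTS, a DESeq2 change of 0.28 on the log2 scale with an SE of 0.09 (DESeq2 adjusted p 0.049, edgeR adjusted p 0.12, authors' deposited table). Ddb2, which works with Xpc on the same lesions and is also a p53 target, had 1.95 and 2.44 FPKM in that order (edgeR adjusted p 0.55, authors' deposited table).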
